A study of Homo sapiens with 4 samples.

Results

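Of 4453 SMARCB1 peaks mapped by ChIP-seq in SK-Hep1 cells, 1308 had been placed in introns by the authors, and 810 of these overlapped an H3K27ac peak of the control cells by at least 1 base. These 810 intronic SMARCB1 peaks in acetylated chromatin are described here. They were chosen by their position class in the SMARCB1 list and by their overlap with control H3K27ac, so that overlap describes how they were picked and is not a result. SK-Hep1 is an established human line labelled as hepatic adenocarcinoma. The analysed groups were a SMARCB1 ChIP, an H3K27ac ChIP from cells with a control shRNA (shCon) and an H3K27ac ChIP from cells with an shRNA against SMARCB1 (shSMARCB1, called the knockdown below), with 1 library each. The shRNA cells were derived by infection and kept by puromycin selection, and the labels do not say which shRNA, if any, the cells of the SMARCB1 ChIP carried. How far SMARCB1 protein fell in the knockdown cells was not analysed here. Because every group is a single library, differences between control and knockdown have no replicate error and were not tested. Shares carry 95% Wilson intervals, which cover counting error alone.

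SWI/SNF complexes are ATP-driven remodellers that slide and evict nucleosomes, and SMARCB1 is a core subunit shared by their canonical forms. Acetylation of lysine 27 of histone H3 (H3K27ac) marks active promoters and enhancers. Introns hold many enhancers, and the first part of a gene body often shares the acetylated domain of its promoter, so an intronic position can mean a distal element or the downstream flank of a start site.

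The labelled tissue was checked at marker genes, counting H3K27ac within 1 kb of a gene end. None of the hepatocyte markers ALB, AFP, APOA1, HNF4A and TTR and none of 5 endothelial markers was marked in either H3K27ac library. All 5 mesenchymal markers (CAV1, CD44, CDH2, VIM and ZEB1) were marked in both, and so was SPI1, 1 of 3 leukocyte markers. These hepatocyte genes were therefore without the mark at their ends in cells labelled as hepatic. In wider lists, counting a control peak anywhere over the gene record, 11 of 25 hepatocyte genes and 12 of 21 endothelial genes carried H3K27ac. The control library held 13235203 tags and the knockdown library 10203310, per the file headers, and for the SMARCB1 library no depth was found in the labels or header. There were 35307 control and 34073 knockdown H3K27ac peaks, covering 79.5 Mb and 70.9 Mb. Depth and covered length were thus both lower in the knockdown, and the part of depth in the widths below was not tested.

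Some members lay on the promoter of a gene listed by RefSeq, although their class was intron. Of the 810 members, 205 overlapped a RefSeq promoter window, and 43 windows of 250 bases upstream of a start, belonging to 42 genes, were wholly covered by a member. Of these, 6 are shown, read 5′ to 3′ on the gene's strand from RefSeq GRCh38.p14: the 3 under the SMARCB1 peaks of highest value and the 3 whose H3K27ac peak was at least 1.5-fold narrower in the knockdown. Capitals mark an AP-1 site, spelled TGACTCA with its reverse complement TGAGTCA, or the GC box, spelled GGGCGG with its reverse complement CCGCCC, or the box spelled CCAAT with its reverse complement ATTGG. The first set is S100A2, a calcium-binding protein (chr1:153563888-153564137, minus strand), GSTP1, a glutathione transferase (chr11:67583562-67583811, plus strand), and DSTN, the actin-severing protein destrin (chr20:17569825-17570074, plus strand). The second set is GRB10, a growth factor receptor adaptor (chr7:50792875-50793124, minus strand), MAST3, a serine/threonine kinase (chr19:18109926-18110175, plus strand), and HOXA3, a homeobox factor (chr7:27150951-27151200, minus strand).
S100A2: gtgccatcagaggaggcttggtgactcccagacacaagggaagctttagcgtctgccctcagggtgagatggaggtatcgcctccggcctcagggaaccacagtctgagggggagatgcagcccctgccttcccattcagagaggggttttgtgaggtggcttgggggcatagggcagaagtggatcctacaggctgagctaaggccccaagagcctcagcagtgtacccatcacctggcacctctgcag
GSTP1: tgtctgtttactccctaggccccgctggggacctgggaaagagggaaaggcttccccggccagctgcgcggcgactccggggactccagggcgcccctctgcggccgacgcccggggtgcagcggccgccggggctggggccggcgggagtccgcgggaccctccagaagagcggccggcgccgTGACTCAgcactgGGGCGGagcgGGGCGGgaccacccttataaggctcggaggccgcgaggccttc
DSTN: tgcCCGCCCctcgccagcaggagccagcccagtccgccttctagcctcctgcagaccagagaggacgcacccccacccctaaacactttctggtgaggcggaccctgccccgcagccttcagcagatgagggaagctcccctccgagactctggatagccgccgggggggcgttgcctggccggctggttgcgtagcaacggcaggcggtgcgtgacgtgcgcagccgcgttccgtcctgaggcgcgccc
GRB10: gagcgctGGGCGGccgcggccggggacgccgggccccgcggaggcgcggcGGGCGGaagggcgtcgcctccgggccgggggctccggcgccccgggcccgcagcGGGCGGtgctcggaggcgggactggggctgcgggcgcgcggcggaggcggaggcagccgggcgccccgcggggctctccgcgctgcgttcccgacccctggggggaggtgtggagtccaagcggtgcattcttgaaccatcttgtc
MAST3: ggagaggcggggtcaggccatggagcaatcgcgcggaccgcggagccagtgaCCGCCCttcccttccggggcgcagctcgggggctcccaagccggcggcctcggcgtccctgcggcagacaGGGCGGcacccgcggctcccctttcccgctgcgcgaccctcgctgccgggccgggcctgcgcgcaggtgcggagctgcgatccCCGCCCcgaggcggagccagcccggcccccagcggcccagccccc
HOXA3: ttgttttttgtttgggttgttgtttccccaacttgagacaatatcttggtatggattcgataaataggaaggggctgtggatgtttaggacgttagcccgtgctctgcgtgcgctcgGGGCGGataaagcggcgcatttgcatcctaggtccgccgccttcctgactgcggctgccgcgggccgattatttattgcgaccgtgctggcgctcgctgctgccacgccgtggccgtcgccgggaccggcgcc

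GSTP1 had an AP-1 site followed by 2 GC boxes, GRB10 and MAST3 had 3 GC boxes each, DSTN and HOXA3 had 1, and S100A2 had no marked motif. The H3K27ac peaks over the first set were close in width in both libraries, with S100A2 at 5585 bp (control) and 5531 bp (knockdown), GSTP1 at 2076 and 1924 bp, and DSTN at 3214 and 3272 bp. Those over the second set were narrower by the way they were picked. GRB10 went from 2499 to 1595 bp, MAST3 from 1620 to 1022 bp and HOXA3 from 2547 to 1197 bp. Over all 43 windows, a GC box was found in 81.4%, against 53.7% of the 22132 windows of the same length in the table, and their median GC content was 74.8% against 62.0%. The AP-1 site was found in 4.65% against 3.45%, the CRE (TGACGTCA) in 4.65% against 2.02%, and the E box (CACGTG) in 6.98% against 7.37%. The TEAD motif, spelled GGAATG with its reverse complement CATTCC, was found in 2.33% against 10.5% and the CCAAT box in 20.9% against 32.7%. Both strands were searched, and a match is a description of letters, not of binding. Base composition differs between the sets, and its part in these shares was not tested.

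The members were mostly narrow. Their median width was 500 bp, with 570 of exactly 500 bp and 37 over 1000 bp. The authors gave each SMARCB1 peak a value of unstated unit, used below for ranking within this list alone. It had a median of 11.6 over the members, with quartiles of 9.51 and 14.8 and a range of 7.92 to 327. Across members the value followed the width of the SMARCB1 peak (Spearman correlation 0.72), but not the width of the control H3K27ac peak (correlation 0.02), as a description over 810 regions of 1 library. Just inside the overlap rule were the members in ANO8 (13 bases of overlap), ATPAF2 (19) and EEF1AKMT4 (57). Just outside it were the intron peaks in HNRNPL (22 bases from H3K27ac), RGS19 (34) and B9D2 (53).

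The 810 members lay in 800 control H3K27ac peaks, called host peaks below. Of these, 787 held 1 member, 12 held 2, and 1, over ITGA3, held 3. 4 members touched 2 host peaks. The host peaks were wide for the list, with a median of 2620 bp against 1707 bp over all control peaks. 30 of them also held a SMARCB1 peak of another class, which was a promoter peak in 23.

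Most members stayed in acetylated chromatin. In the knockdown 764 of 810 overlapped an H3K27ac peak, or 94.3% (92.5 to 95.7%). The share was also 94.3% (91.8 to 96.1%) for the 460 intergenic SMARCB1 peaks over control H3K27ac, and it was 98.8% (98.0 to 99.3%) for the 1256 promoter ones. The intronic and promoter intervals did not overlap, but no test of the difference was made. Of the 46 members that lost overlap, 33 lay in host peaks with no knockdown counterpart, and 13 lay in host peaks that receded from the SMARCB1 peak. In the other direction, 11 of the 498 intron peaks outside control H3K27ac were inside knockdown H3K27ac.

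Counted by host peak, 35 of 800 lacked any knockdown peak, or 4.38% (3.16 to 6.02%), whereas 17.7% of all control H3K27ac peaks had none. The share was 19.1% of the 32252 control peaks with no SMARCB1 peak, 4.41% (2.87 to 6.71%) of host peaks of intergenic SMARCB1 peaks and 0.879% (0.491 to 1.57%) of those of promoter SMARCB1 peaks. Width went with these shares. Among host peaks under 1 kb, 29 of 62 were lost, or 46.8% (34.9 to 59.0%), beside 52.6% (51.6 to 53.6%) of peaks with no SMARCB1. From 1 to 2 kb it was 4 of 210, or 1.90% (0.743 to 4.79%), beside 8.58% (8.05 to 9.15%). From 2 to 4 kb it was 2 of 323, or 0.619% (0.170 to 2.23%), beside 1.04% (0.854 to 1.28%), and from 4 kb up it was 0 of 205, which allows up to 1.84%, beside 0.0880%. The intervals were apart in the 1 to 2 kb class and overlapped in the other 3.

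**Figure D1:**
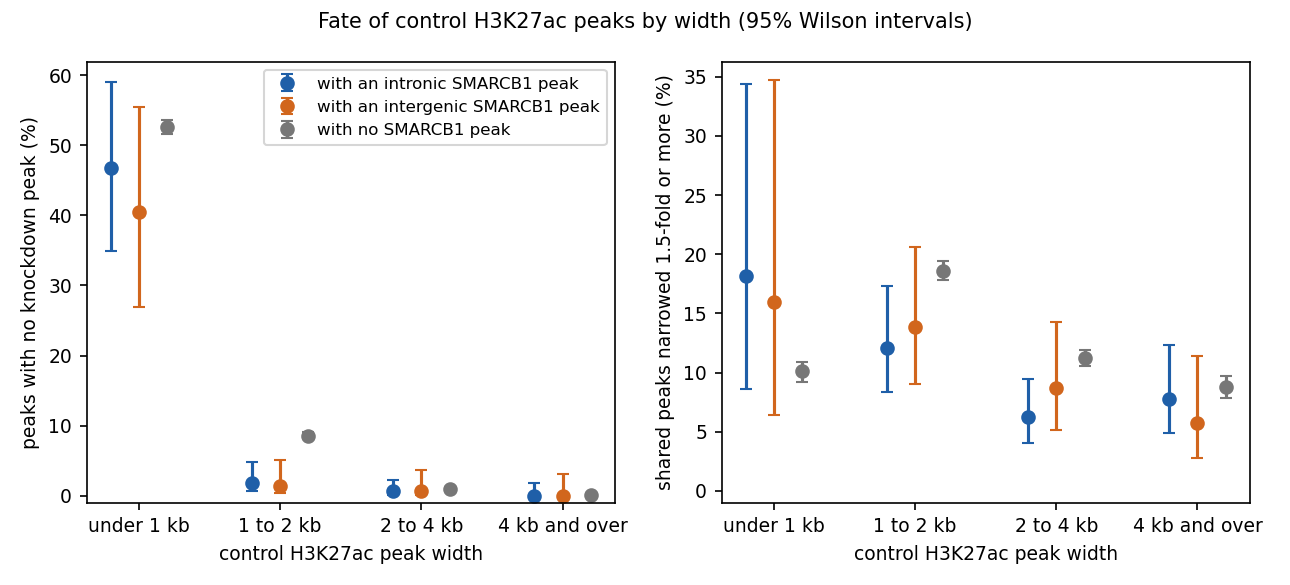
Percent of control H3K27ac peaks with no knockdown peak (left) and percent of shared peaks narrowed 1.5-fold or more (right), by width class of the control peak, for peaks with an intronic, an intergenic or no SMARCB1 peak, with 95% Wilson intervals as bars. Loss was highest under 1 kb in all 3 sets, at 46.8% of intronic host peaks and 52.6% of peaks with no SMARCB1.

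Position relative to start sites went with loss too. Among the 435 host peaks that covered a RefSeq start, 3 were lost, or 0.690% (0.235 to 2.01%), and among the 365 that covered none, 32 were lost, or 8.77% (6.28 to 12.1%). The same shares in peaks with no SMARCB1 were 3.27% (2.91 to 3.68%) and 24.8% (24.2 to 25.3%). Within peaks of 1 to 2 kb that covered no start, 4 of 95 host peaks were lost, or 4.21% (1.65 to 10.3%), against 11.2% of peaks with no SMARCB1. Within 2 to 4 kb the shares were 1.74% (0.478 to 6.12%) and 1.66% (1.35 to 2.04%), which could not be told apart at these counts. Split into 4 classes by the authors' SMARCB1 value, from lowest to highest, loss was 5.69%, 5.33%, 3.68% and 2.49% of host peaks, with overlapping intervals.

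The width of a shared host peak was compared as the summed width of all knockdown peaks over it, divided by its control width. The median log2 ratio over the 765 shared host peaks was -0.15, a ratio of 0.901, with quartiles of -0.31 and -0.01. Over all shared control peaks it was -0.13, or 0.912, so host peaks stood within 0.02 of the whole list. Of the 765, 589 (77.0%) were narrower and 176 wider in the knockdown, beside 69.0% narrower over all shared control peaks. A change of 1.5-fold or more was rarer. 67 host peaks narrowed that far, or 8.76% (6.96 to 11.0%), beside 12.6% of all shared control peaks, and 16 widened that far, or 2.09% (1.29 to 3.37%), beside 6.41%. The widened share went with width. It was 21.2% (10.7 to 37.8%) of host peaks under 1 kb beside 24.6% of all shared control peaks. From 1 to 2 kb it was 1.94% (0.758 to 4.89%) beside 4.32%, from 2 to 4 kb 0.935% beside 1.87%, and from 4 kb up 0.976% beside 1.43%. In these classes 57.6%, 71.8%, 76.6% and 85.9% of host peaks were narrower by any amount, beside 39.7%, 70.3%, 76.8% and 81.2%. 64 of the 765 were split over at least 2 knockdown peaks, as were 1077 of all 29048 shared control peaks. Most of these host peaks were wide. From 4 kb up, 58 of 205 host peaks were split, beside 849 of all 4051 shared control peaks. Relative to the median of the whole list, the median over host peaks was -0.02, with 42 narrowed and 21 widened. The shares of all shared control peaks called after this shift were not computed, so these counts have no background beside them. Neither the control width of the host peak nor the SMARCB1 value went with the ratio (Spearman correlations 0.02 and 0.00 over 777 members, whose host peaks are not all distinct).

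**Figure D2:**
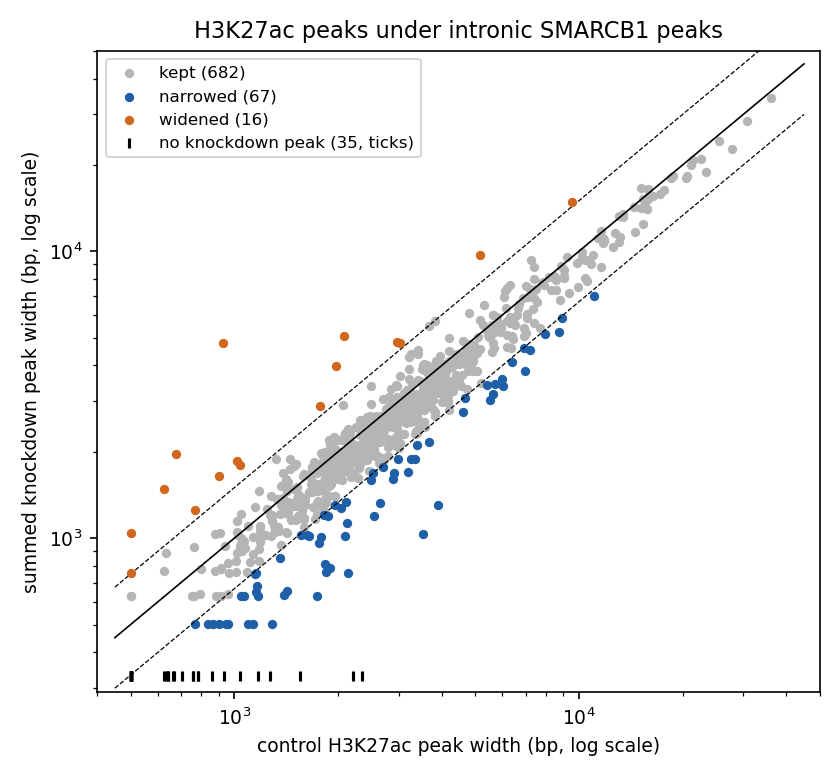
Width of each shared host peak in the control (horizontal axis, bp, log scale) against the summed width of the overlapping knockdown peaks (vertical axis, bp, log scale), 1 point per host peak, with lines at equal width and at 1.5-fold and ticks at the bottom for the 35 lost host peaks. Points lie mostly a little under the line of equal width, at a median log2 ratio of -0.15, with 67 narrowed and 16 widened by 1.5-fold or more.

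By width class, the narrowed share of host peaks was 18.2% (8.61 to 34.4%) under 1 kb, 12.1% (8.36 to 17.3%) from 1 to 2 kb, 6.23% (4.07 to 9.43%) from 2 to 4 kb and 7.80% (4.86 to 12.3%) from 4 kb up. For peaks with no SMARCB1 these shares were 10.1%, 18.6%, 11.2% and 8.75%. The host share was thus lower in the 2 middle classes, with intervals apart from those of the other set, and not distinguishable from it in the narrowest and widest. These 2 classes were also split by whether the peak covered a start, which leaves fewer host peaks in each set and wider intervals. From 1 to 2 kb, host peaks narrowed in 6.09% of cases with a start and 19.8% (12.9 to 29.1%) with none, against 8.77% and 23.1% (22.1 to 24.2%) of peaks with no SMARCB1. From 2 to 4 kb the host shares were 4.81% (2.63 to 8.62%) and 8.85% (4.88 to 15.5%), against 5.64% (4.94 to 6.43%) and 15.2% (14.3 to 16.2%). The host share was the lower in all 4 of these pairs, and the intervals overlapped in each. The part of start sites in the separation was not tested. Over all widths, host peaks that covered a start narrowed in 25 of 432 cases, or 5.79% (3.95 to 8.40%), and those that covered none in 42 of 333, or 12.6% (9.47 to 16.6%), beside 7.22% and 16.0% of peaks with no SMARCB1.

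The edges of the host peaks were mostly closer to the SMARCB1 peaks in the knockdown, on both sides. For 773 members with a single shared host peak, the median distance from the SMARCB1 centre to the nearer edge was 894 bp before and 825 bp after knockdown, and to the farther edge 1790 and 1593 bp. The nearer edge was closer in the knockdown at 532 members (68.8%) and the farther edge at 590 (76.3%). Which edge was nearer was set from the control peak alone. Edge shares were not computed for other control peaks, but 69.0% of all shared control peaks were narrower in the knockdown, so closer edges are not particular to members. Both edges were closer at 414 and both were farther at 65. Within 10 kb on either side of the centre, the median acetylated length was 3383 bp (control) and 2932 bp (knockdown), lower at 628 members and higher at 181. The ratio of summed lengths was 0.884, beside 0.879 around the intergenic and 0.892 around the promoter SMARCB1 peaks, 0.852 around control peaks with no SMARCB1, and 0.892 for the whole lists. The centre of a member was acetylated at 96.7% of members in the control and 91.2% in the knockdown, and the points 1 kb to either side at 61.7% and 62.0% in the control and 54.0% and 54.3% in the knockdown. Members were picked by overlap with control H3K27ac, so a higher control share at and near the centre follows from the rule. For the intergenic peaks, picked in the same way, the centre had 96.5% and 91.3%.

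**Figure D3:**
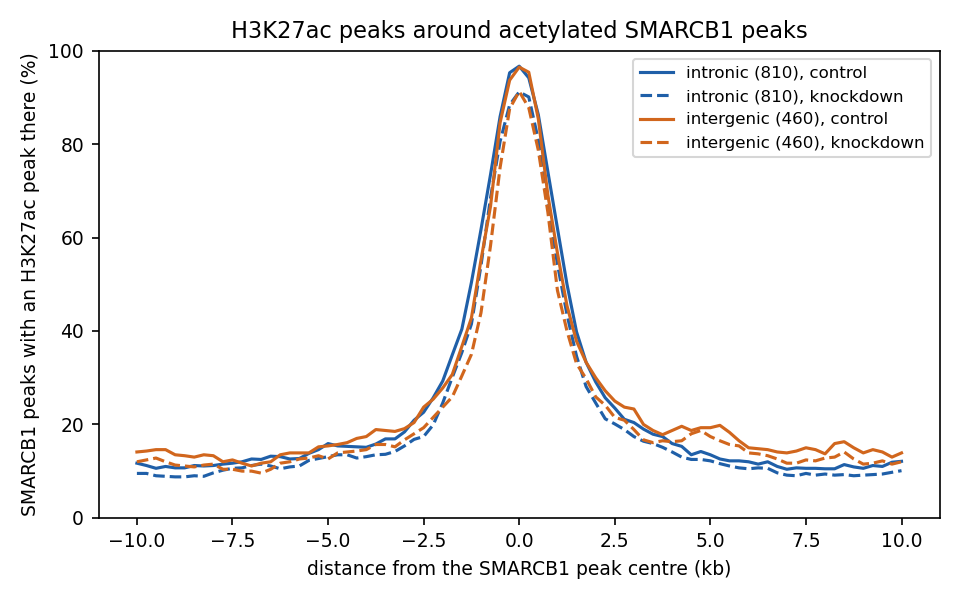
Percent of SMARCB1 peaks (vertical axis) with an H3K27ac peak at each distance from the SMARCB1 peak centre (horizontal axis, kb, in genome order), for the 810 intronic members and the 460 intergenic acetylated peaks, in the control (solid) and the knockdown (dashed). For the members the knockdown is lower, at 91.2% against 96.7% at the centre and 54.0% against 61.7% at 1 kb to the left. Both sets were picked by overlap with control H3K27ac, which by itself favours the control near the centre.

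Members sat near the starts of their genes or far inside them. For 635 members the host gene had a start in the RefSeq promoter table, and the median distance to it was 873 bp, with quartiles of 306 and 14874 bp. 582 lay downstream of the start, and for 403 (63.5%) the start was inside the same host peak. Of 326 members under 1 kb from the start, 98.5% (96.5 to 99.3%) overlapped knockdown H3K27ac. The share was 95.6% (89.1 to 98.3%) of 90 members at 1 to 5 kb, 91.0% (82.6 to 95.6%) of 78 at 5 to 20 kb and 88.9% (81.6 to 93.5%) of 108 at 20 to 100 kb. It was 97.0% (84.7 to 99.5%) of the 33 members at 100 kb and over. Among those 33, a group singled out after its values were seen, the host peak narrowed by 1.5-fold or more at 11, or 33.3% (19.8 to 50.4%), against 44 of 582 shared cases nearer the start, or 7.56% (5.68 to 10.00%). The narrowed share was 12.6% of all shared control peaks. It was 16.0% of shared peaks with no SMARCB1 that covered no RefSeq start, and 23.1% of those of 1 to 2 kb. The 11 were in SLC9A9, RAI1, NPSR1, AK5, EFNA5, FGGY, ROR1, ABTB2, TLN2, TTC7A and LRMDA. None of the 33 widened by that much, and 13 of them had host peaks under 2 kb, as had 177 of the 582. The groups differ in position too. The start lay inside the host peak at 324 of the 326 members under 1 kb and at none of the 33. It also lay inside none of the host peaks at 20 to 100 kb, where 11 of the 108 members had a narrowed host peak and 10 a lost one. Of peaks with no SMARCB1 that covered no RefSeq start, 24.8% were lost.

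The host genes were protein-coding for 760 members, and for the other 50 the RefSeq table listed a non-coding gene. Together the members lay in 756 protein-coding genes, 5.46% of the 13842 that carried control H3K27ac. 1 member lay in a cluster of over 5 overlapping gene records, all counted as hosts, and 734 host genes lay outside that cluster. Host genes were long, at a median record length of 50256 bp against 31528 bp for the other acetylated genes. That median counts all 756 genes, with those of the cluster. Members were picked by the intron class, which can favour long genes, and the part of this rule was not tested. 44 genes held 2 or more members. FKBP5, a glucocorticoid-induced chaperone partner, MAST3, the retinoic acid-induced RAI1, the pentose phosphate enzyme transketolase (TKT) and TTC7A held 3 each, and ITGA3 held 4.

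ITGA3 encodes the alpha-3 subunit of a laminin-binding integrin, and its record spans chr17:50056110-50090481 (hg38). Its first 3 members, at chr17:50060695-50061194, chr17:50062336-50062835 and chr17:50064759-50065388, had values of 15.3, 12.7 and 20.6. They lay in a domain of 22678 bp that was 21010 bp wide in the knockdown, and all 3 were wholly inside it in both libraries. The last, at chr17:50077078-50077577 with a value of 11.6, touched a control peak of 3523 bp that was 1032 bp wide in the knockdown (log2 ratio -1.77). That knockdown peak began 2490 bases away, so the SMARCB1 peak had no acetylated base left. The 2 host peaks of this gene therefore differed, with log2 ratios of -0.11 and -1.77.

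**Figure D4:**
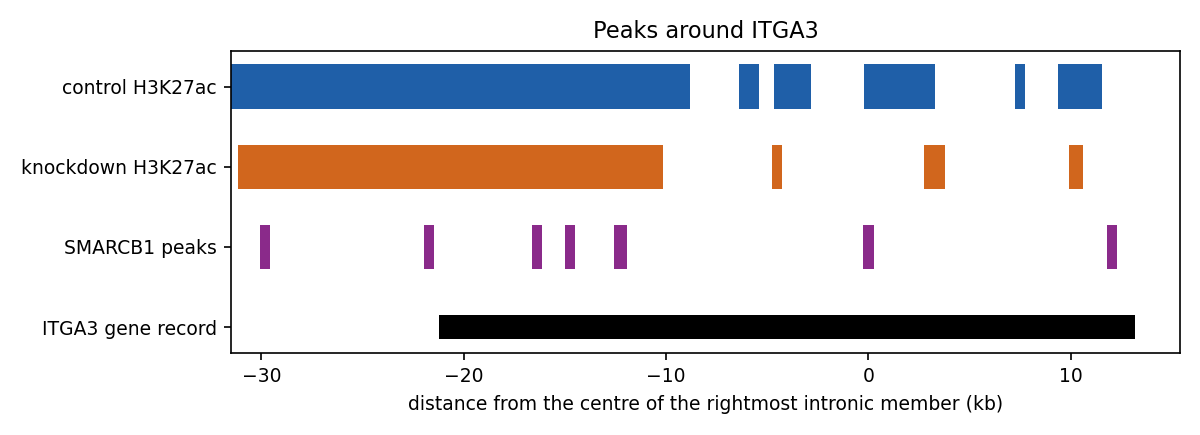
Map of the ITGA3 region with the gene record, all SMARCB1 peaks of any class, and control and knockdown H3K27ac peaks as boxes, along distance in kb from the centre of the rightmost intronic member. The domain of 22678 bp in the control stayed at 21010 bp in the knockdown, while the 3523 bp peak under the rightmost member was replaced by 1032 bp at its far end.

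Among the widest of the 35 lost host peaks, those described here ran from 2203 to 664 bp. The uncharacterised LOC339166 had 2203 bp, KCNQ1, a voltage-gated potassium channel, with 1550 bp, and PACSIN1, an endocytic adaptor, with 1266 bp. SFSWAP, a splicing regulator, lost a peak of 1171 bp and LMNA, the lamin A/C gene, a peak of 1041 bp that lay 28292 bp into the gene. CRABP2, a retinoic acid carrier, had 931 bp, and the GTPase-activating protein ARHGAP44 had 864 bp. The nucleolar deubiquitinase USP36 (787 bp), the SWI/SNF subunit ARID1B (784 bp), the palmitoyltransferase ZDHHC22 (759 bp), MFSD11 (758 bp), the serpin SERPINB6 (704 bp), the homeobox gene HOXC10 (667 bp) and the actin regulator CAP2 (664 bp) completed them. Of the 35, 29 were under 1 kb. Within 10 kb of the SMARCB1 centre, acetylated length was 9855 bp (control) and 9450 bp (knockdown) at LMNA, and 6715 and 6961 bp at CAP2. It was 4238 and 3581 bp at HOXC10, 4482 and 3142 bp at SFSWAP, and 2166 and 811 bp at SERPINB6. At the other lost peaks described here it was 0 in the knockdown.

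The 13 receded cases kept H3K27ac at the locus but not under the SMARCB1 peak. Only the members in ANXA2, EPAS1 and MYBL1 had lain wholly inside the control peak, and the others overlapped its edge. The VIM member, at chr10:17234653-17235664, ran past the end of its control peak at 17234825. The member in EEF1AKMT4 overlapped control H3K27ac by 57 bases. At such members a small shift of an edge is enough to end the overlap. At VIM, the mesenchymal filament gene, the member of value 34.3 lay 1047 bases from the knockdown peak, and the host peak went from 8591 to 7342 bp. At EPAS1, the hypoxia factor HIF-2 alpha, the gap was 11 bases and the width went from 2889 to 1609 bp. ANXA2, a membrane-binding annexin, had a gap of 466 bases. The others were in GRIN3B, ITGA3, DGAT2, ASPSCR1, EEF1AKMT4, PITX1-AS1, MYBL1, EFNA5, KCNH2 and CKAP2, with gaps of 53 to 2490 bases.

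Among the narrowed host peaks, the 10 with the most bases lost were led by NFIX, a nuclear factor I gene, from 11045 to 6973 bp. PGLS, a pentose phosphate enzyme, went from 8732 to 5216 bp, and UBALD2 from 6981 to 3835 bp. The nucleoside transporter SLC29A1 went from 8942 to 5838 bp, and CBX3, which encodes heterochromatin protein 1 gamma, from 7991 to 5160 bp. MYBL2, a cell cycle factor, had 7194 and 4521 bp, and PPIA, cyclophilin A, had 6034 and 3403 bp. The steepest ratios were in narrower peaks, with ANXA2 at 3906 and 1304 bp (log2 ratio -1.58) and the ITGA3 peak above. CLSTN1, a calsyntenin, had 5507 and 3032 bp.

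Of the 16 widened host peaks, MED15, a Mediator subunit, gained most, from 9572 to 14821 bp. MYBL1 went from 5160 to 9713 bp spread over 3 knockdown peaks, yet its member was among the 13 that lost overlap. The summed width also counts knockdown bases beyond the control peak, which can lie over neighbouring control peaks. Within 10 kb of the SMARCB1 centre, acetylated length at MED15 was 14121 bp (control) and 16094 bp (knockdown). At MYBL1 it was lower in the knockdown, at 10375 and 7664 bp, and at LRRC75A it was higher, at 2077 and 5087 bp. At MYL6, a myosin light chain gene, 2 neighbouring control peaks of 926 and 3029 bp were joined into a single knockdown peak of 4783 bp, so both count as widened. LRRC75A went from 2077 to 5087 bp, PADI1, a peptidyl arginine deiminase, from 1967 to 3998 bp, and RAI1 from 2969 to 4819 bp. TEN1, a telomere protein, went from 679 to 1969 bp, the polarity gene LLGL1 from 1775 to 2887 bp, and WDR25 from 626 to 1480 bp.

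The SMARCB1 peaks of highest value among the members lay in genes with records of 1016 to 7713 bp, most of which encode abundant proteins. They were in GAPDH, a glycolytic enzyme (value 327), TPT1 (232), cytoplasmic gamma-actin ACTG1 (213), the calcium-binding S100A6 (161), TMSB10, an actin-sequestering thymosin (149), the ribosomal protein gene RPS6 (90.3), S100A2 (73.4), RPS27 (71.3), MYL6 (69.7) and the transcriptional inhibitor ID3 (67.6). All 10 peaks were over 1000 bp wide, and they covered from 34.8% of the gene record at TPT1 to 100% at S100A6 and TMSB10. Of their host peaks, 6 were wider in the knockdown and the median log2 ratio was 0.05, while 176 of the 765 shared host peaks were wider. At GAPDH the host peak had 6082 and 6943 bp, and at ACTG1 6326 and 7637 bp. Of the 11 intron peaks acetylated in the knockdown but not the control, the keratin genes KRT5 and KRT17 held the highest, with values of 1199 and 1116. Whether peaks that cover most of a gene record reflect SMARCB1 binding was not tested.

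The 6 widest host peaks were all narrower in the knockdown, none by 1.5-fold. HSD52 went from 35998 to 34206 bp, LOC124904002 had 30853 and 28348 bp, and MIDN, which encodes midnolin, had 27900 and 22731 bp in 6 pieces (log2 ratio -0.30). EPHA2, an ephrin receptor, had 25559 and 24168 bp with 2 members, and the actinin gene ACTN4 had 23375 and 18893 bp (log2 ratio -0.31). The ratios of MIDN and ACTN4 lay near the lower quartile over host peaks, -0.31, and the other 4, from -0.12 to -0.07, above the median of -0.15.

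Host genes were then sorted into 19 lists by role, chosen with earlier results of these data known, and their shares stand beside 5.46% of all acetylated genes. The lists were not matched to other genes on length or acetylated width, so these counts are a description. Among chromatin genes, 4 of 29 acetylated SWI/SNF subunit genes were hosts (13.8%). ARID1B lost its peak of 784 bp, SMARCD3 went from 1147 to 751 bp, BCL7A from 3489 to 3163 bp and BICRA from 2618 to 2320 bp. At signalling genes, 5 of 25 receptor tyrosine kinase and ligand genes were hosts. All 5 host peaks were narrower in the knockdown, as were 77.0% of all shared host peaks. The growth factor receptor EGFR had 2281 and 1618 bp, IGF1R 2825 and 2459 bp, and the ligand PDGFB 3193 and 1698 bp. In the YAP and TEAD list 3 of 28 were hosts, of which the coactivator WWTR1 (TAZ) went from 2109 to 1336 bp and PTPN14 from 4199 to 4997 bp. None of 28 acetylated TGF-beta pathway genes was a host.

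At genes of adhesion and cell shape, 5 of 35 integrin, laminin and focal adhesion genes (14.3%) and 7 of 37 actin cytoskeleton genes (18.9%) were hosts. ITGA6, another laminin-binding integrin, had 9331 and 7177 bp, and the talin TLN2 had 6923 and 4589 bp. The cytoskeletal linker PLEC had 21395 and 20885 bp, myosin MYH9 13072 and 10775 bp, and filamin FLNC 7583 and 6657 bp. No actin list host was lost or passed 1.5-fold. Of the extracellular matrix list 4 of 37 were hosts, with perlecan HSPG2 at 13148 and 11222 bp and the protease MMP14 at 3961 and 4306 bp. In the mesenchymal list 5 of 22 were hosts (22.7%). The hyaluronan receptor CD44 had 10449 and 8044 bp, RUNX1 3054 and 2301 bp and TCF7L2 7252 and 9334 bp, and NFATC1 lost its peak of 501 bp.

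Housekeeping lists had hosts too, with 10 of 51 ribosomal and translation genes (19.6%) and 5 of 24 hypoxia and glycolysis genes (20.8%). Host peaks of the ribosomal list went both ways, with 6 of 11 narrower, 1 lost and the other 4 wider. EEF1G, an elongation factor subunit, had 5616 and 4800 bp and RPS24 had 4676 and 3075 bp, while the ribosomal stalk genes RPLP1 and RPLP0 had 3031 and 3686 bp and 3530 and 4014 bp. The lost peak, of 501 bp, was a second host peak of RPLP0. The 7 host peaks of the hypoxia and glycolysis list had a median log2 ratio of 0.09, with 3 narrower. The glycolytic PFKP had one host peak of 11818 and 10823 bp and another of 5641 and 6020 bp, and the hexokinase HK1 widened from 771 to 1258 bp. The NF-kB list had STAT3 (9071 and 8623 bp) and SOD2, the AP-1 list ATF3 (3343 and 2303 bp), the heat shock list DNAJA1 and BAG3, and the splicing list HNRNPU. Of cell type lists, the epithelial list had KRT8 (11842 and 10850 bp) and KRT19 (7419 and 5609 bp), and the endothelial list had VWF (2623 and 2618 bp) and EGFL7. The leukocyte and small nucleolar RNA host lists had none.

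Chromosome 17 held more members than its share of acetylation, with 87 of 810, or 10.7% (8.79 to 13.1%), against 5.15% (4.92 to 5.38%) of control H3K27ac peaks. That is 47.9 members per 1000 control peaks, and the other chromosomes ranged from 7.38 to 29.5. The share was 10.7% of all SMARCB1 peaks, so it was not particular to introns. The 5 Mb from 15 to 20 Mb had the highest median log2 width ratio of 243 such intervals, at 0.18 over 130 shared control peaks, 34 of which (26.2%) widened by 1.5-fold or more. It held 15 members, whose host peaks had a median of 0.15. Of these, 11 were wider in the knockdown, and those in LRRC75A, RAI1, LLGL1 and B9D1 widened by 1.5-fold or more. A member of RAI1 in the same interval went the other way, from 1099 to 501 bp. This interval was picked after its values were seen. Of the 16 widened host peaks, 6 lay on chromosome 17, and 10 remained without it. The 6 were 7.79% (3.62 to 16.0%) of the 77 shared host peaks there, beside 9.22% (7.88 to 10.8%) of all 1551 shared control peaks of this chromosome. Widening there was thus not particular to host peaks. Both H3K27ac libraries were called against the control input, per the file headers, and the part of copy number in these widths was not tested.

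**Figure D5:**
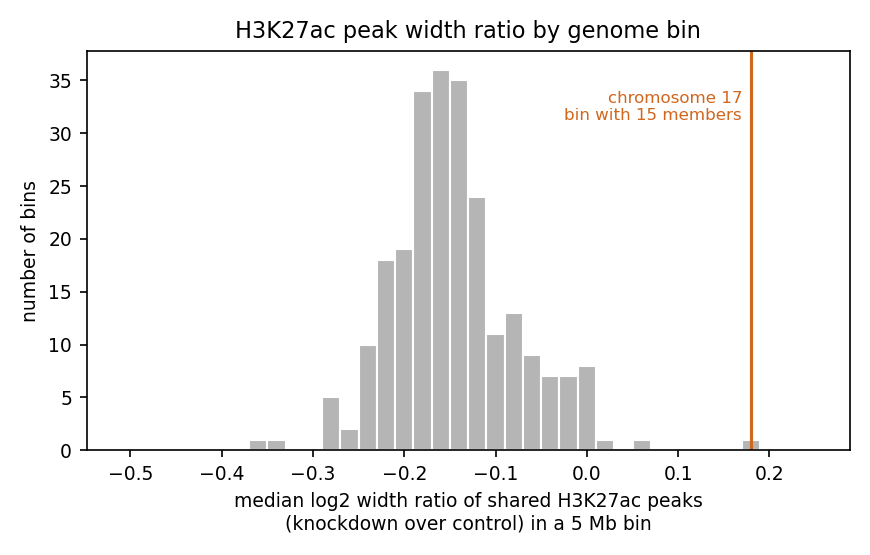
Histogram of the median log2 width ratio (knockdown over control, horizontal axis) of shared control H3K27ac peaks in 243 intervals of 5 Mb, with the number of intervals on the vertical axis and a line at the interval of chromosome 17 from 15 to 20 Mb. That interval had the highest median, 0.18.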

How the data were processed

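ChIP-seq peak lists for SMARCB1 and for H3K27ac in control and knockdown SK-Hep1 cells were analysed, with 1 library each, grouped by the submitters' titles. The input library was not analysed here. The deposited H3K27ac values are peak starts and ends in bases. Tools named in the submitters' processing notes are Bowtie2 and HOMER, with hg38 as build and no versions. The file headers of both H3K27ac lists give HOMER's histone style, the control input as background for each library, 500 bp as peak size, 1000 bp as least spacing and 4-fold as the least excess over input and local signal. They give fragment lengths of 190 bp (control) and 158 bp (knockdown). The deposited SMARCB1 list gives the authors' per-peak value, of no stated unit, and position class.

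Peaks on Y, 3 per H3K27ac list, were left out. Overlap meant at least 1 base and was checked with bedtools 2.31.1. A lost host peak had no overlapping knockdown peak, and a narrowed or widened one changed by 1.5-fold or more in summed knockdown width. Host genes were protein-coding records of the RefSeq table of GRCh38.p14 spanning the SMARCB1 centre, because the authors' list names no genes. Genes were named by rule: the 15 widest lost host peaks, the 10 narrowed and 10 widened with the largest difference, genes with 4 or more members, the 10 highest values, the 6 widest host peaks, up to 4 hosts per list, and the 3 peaks on each side of the overlap threshold. Some named items are not reported here. Genes outside the rule are named where a count or feature was singled out after its values were seen. The members and lists were chosen with earlier results of these data known. Shares have 95% Wilson intervals. Overlap and width code was tested on simulated data. The software was SciPy 1.17.1, pandas 2.3.3, matplotlib 3.10.9 and NumPy 2.4.6 under Python 3.11.15. The alternatives tried covered the overlap, wider or stronger peaks, merging, distance from gene ends, the width measure, scaling, chromosome 17, start sites and other SMARCB1 classes.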

Additional observations from a re-analysis of the deposited data

How the results depend on the processing

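Under 8 other settings, and 3 chosen after seeing the data, 52 values of 7 results were recomputed, of which 32 stayed within the interval, or within 1.5 times for counts, 20 moved and 0 reversed. Reversed meant a change of sign, which counts and shares cannot show, so only the median log2 ratio could have been called reversed. With only the wider 50% of each H3K27ac list, 90.3% of members overlapped knockdown H3K27ac, 8.47% of host peaks were lost, the median log2 ratio was -0.12, and 36 narrowed and 7 widened. Cutting both lists by width itself turns some shared peaks into single-library ones. With SMARCB1 peaks at or above the median value, there were 431 members in 409 host genes, with 34 narrowed and 6 widened. Over 2500 bases from a gene end there were 403 members in 349 genes, of which 91.3% overlapped knockdown H3K27ac, with 6.62% of host peaks lost and 40 narrowed. These settings keep fewer peaks, which by itself lowers counts. Counting knockdown bases inside the control peak gave a median of -0.17 and 0 widened, which follows from that measure. Relative to the median of all shared peaks, the median was -0.02 and 42 narrowed. Without chromosome 17, 10 widened, and in host peaks with no RefSeq start 8.77% were lost. The cause was not tested for the other moves. No paired analysis was possible because each group had 1 library and the labels give no replicate numbers. The depth of 13235203 against 10203310 tags limits every comparison of width and loss.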
